A study of Homo sapiens with 6 samples.

Results

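The genes described here are the receptors PRLR and GHR, the kinase JAK2, the transcription factors STAT5A and STAT5B, the feedback inhibitors CISH and SOCS2, and the RANK ligand system of TNFSF11, TNFRSF11A and TNFRSF11B. They were chosen by name, with earlier results of these data known. Every gene probe that the array design assigns to 1 of these 10 symbols was used, which gave 14 of the 34127 gene probes. The measurements are RNA levels in 2 cell lines made from T47Dco, a subline of the human luminal breast cancer cell line T47D. pLUM cells came from a xenograft tumor grown with estradiol (E) and pLB cells from a tumor grown with E plus progesterone, both in mice, and each line was purified by repeated sorting on CLD3 and CD49f. pLUM cells were ER+PR+ luminal cells kept in E and given 1 nM E for 72 h, and pLB cells were ER-PR- luminobasal cells kept under E withdrawal (EWD), both in medium with charcoal-stripped serum. RNA of 3 sorts of each line was hybridized to 1-colour Agilent arrays, 1 array a sort.

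Each line derives from 1 tumor, and line and hormone coincided on all 6 arrays, so that effects of the line and of E cannot be told apart. Cells were fixed and sorted on CK5 before RNA was extracted, and whether RNA of the CK5+ or the CK5- fraction went on the arrays is not given in the sources used here. The p-values below measure the spread between sorts of a single line, which may be technical. In such bulk RNA, fewer cells that express a gene and less RNA per cell cannot be told apart either.

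Prolactin and growth hormone bind related receptors, PRLR and GHR, that have no kinase of their own and signal through the attached kinase JAK2. JAK2 phosphorylates STAT5A and STAT5B, which enter the nucleus, bind DNA as dimers and induce genes that include CISH and SOCS2, whose products damp the same receptors. In the mammary gland the pathway drives alveolar growth and milk protein expression, and progesterone and prolactin both raise RANK ligand (TNFSF11), which luminal cells release to act on its receptor RANK (TNFRSF11A), while osteoprotegerin (TNFRSF11B) is a secreted decoy that captures the ligand.

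STAT5 dimers bind the palindrome TTCNNNGAA, which reads alike on both strands. The promoter of CISH is shown because it held more copies of this motif than the promoter windows of the other members that had such windows. The letters are the 250 bases before the RefSeq transcription start in GRCh38.p14, chr3:50611775-50612024, minus strand, with the 4 matches in capitals.
CISH promoter: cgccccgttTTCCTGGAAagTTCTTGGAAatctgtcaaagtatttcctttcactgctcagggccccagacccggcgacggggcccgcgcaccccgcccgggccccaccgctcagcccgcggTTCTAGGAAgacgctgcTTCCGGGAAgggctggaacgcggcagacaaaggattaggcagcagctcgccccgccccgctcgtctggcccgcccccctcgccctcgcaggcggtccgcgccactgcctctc
Counted from the start, where -1 is the base before it, the first bases of the matches lie at -241, -230, -129 and -112, and the matches do not overlap. RefSeq windows of 300 bases, from 250 before to 50 after a start, were listed for 8 of the 10 genes, in 21 windows. SOCS2 and TNFRSF11B had no window and were not searched. 1 match stood in 1 of the 7 GHR windows and 1 in 1 of the 2 TNFSF11 windows, both with the letters TTCAAAGAA. The windows of PRLR, JAK2, STAT5A, STAT5B and TNFRSF11A held none. Of all 35116 windows, 7.66% held at least 1 match and 7 windows, of 6 genes, held at least 4. A match is a run of letters, and binding was not measured.

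**Figure D1:**
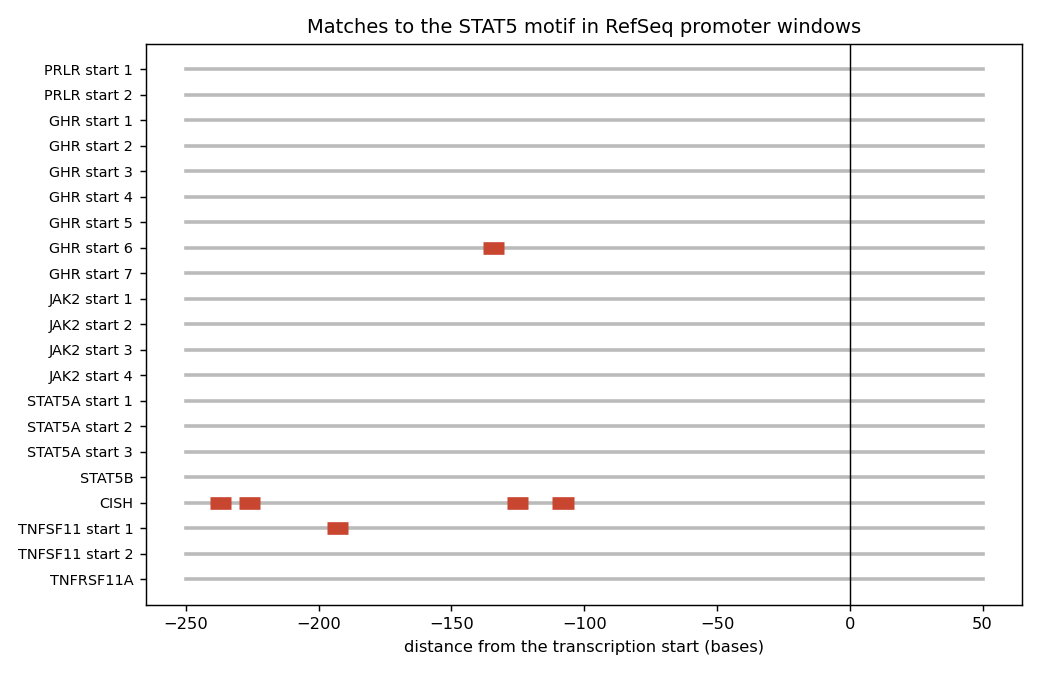
Each grey line is a RefSeq promoter window from 250 bases before to 50 bases after a transcription start, with the distance from the start in bases on the horizontal axis, and each red block is a match to TTCNNNGAA. CISH holds 4 matches, 1 window each of GHR and TNFSF11 holds 1, and the other windows hold none.

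1 probe of each receptor is shown because the receptor results rest on such 60-base probes, and these are the PRLR and GHR probes of the array that hold no stop codon when read from their first base. Both are written 5′ to 3′ in lower case, with no part marked.
PRLR probe, chr5:35070281-35070340, minus strand, hg19: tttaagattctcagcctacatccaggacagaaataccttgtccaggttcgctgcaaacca
GHR probe, chr5:42711414-42711473, plus strand, hg19: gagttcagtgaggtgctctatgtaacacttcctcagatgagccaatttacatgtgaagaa
The array design gives the transcripts NM_001204315 for the PRLR probe and NM_001242462 for the GHR probe. The other probes are named by gene and position, as the files give them in hg19.

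Values are log2 signals relative to the 75th percentile of all gene spots on the same array, so that 0 is the level of that percentile and differences are pLB minus pLUM. A probe counts as measured on an array where Agilent Feature Extraction marked it well above background. The 75th percentile was 449 to 869 intensity units over the arrays, 21280 to 22772 probes were well above background on an array, and no gene spot was saturated. Across tested probes r was 0.984 to 0.991 between pLUM arrays, 0.972 to 0.989 between pLB arrays and 0.780 to 0.806 between lines. The 3 pLUM arrays and pLB replicate 1 were on slide 1, and pLB replicates 2 and 3 on slide 2. Of the luminal markers ESR1, PGR, GATA3, FOXA1, CLDN3, MUC1, KRT8 and KRT18, 7 of 8 were called lower in pLB by the probe with the highest mean. All 7 luminobasal markers (KRT5, TP63, ITGA6, CDH3, EGFR, JAG1 and ANXA1) were called higher. The authors' own table of mRNA differences between the lines holds these markers, so the counts were largely known in advance. SNAI2, NOTCH1 and CD44, which that table also gives as higher in pLB, were not in the list. Probes of KRT8 disagreed, and another KRT8 probe was called higher. CLDN3, ITGA6 (CD49f) and KRT5 (CK5) encode proteins used in sorting.

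**Figure D2:**
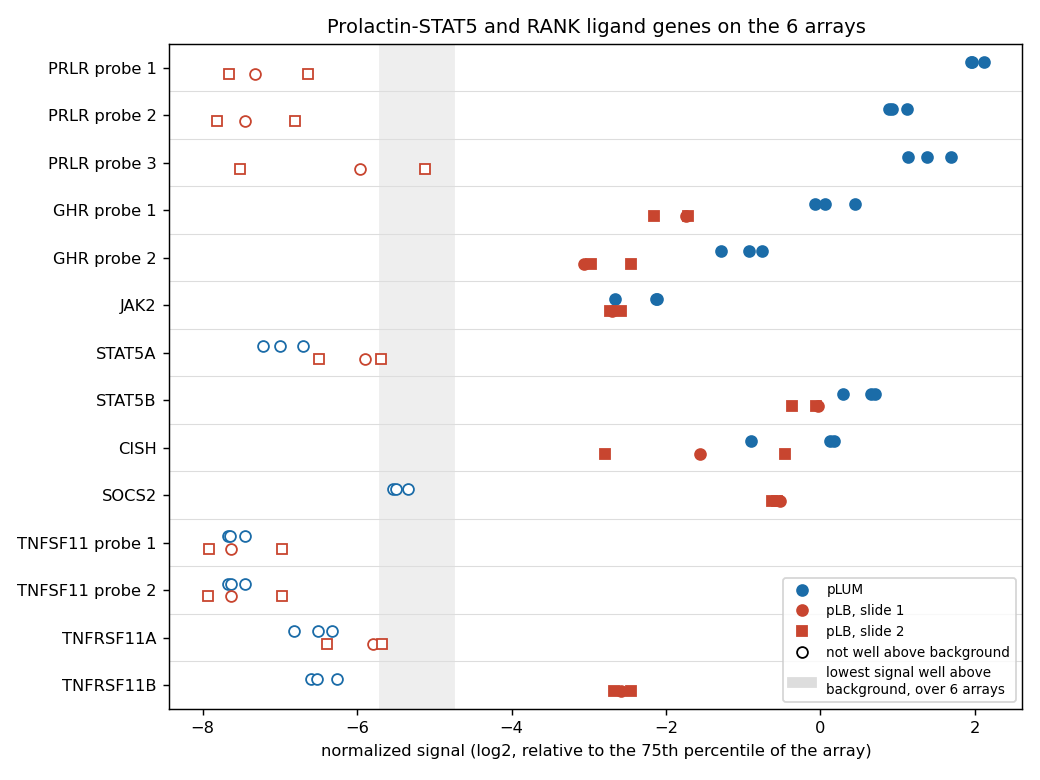
Log2 signal of each of the 14 probes on the 3 pLUM and 3 pLB arrays, with squares for slide 2, open symbols where the probe was not well above background, and a grey band for the range over arrays of the lowest signal well above background. Probes of a gene are numbered in the order of the text. PRLR is well above background only in pLUM, SOCS2 and TNFRSF11B only in pLB, and STAT5A, TNFSF11 and TNFRSF11A on none of the 6 arrays.

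The receptors were lower in pLB, PRLR by the wider margin. PRLR, the prolactin receptor, was read by 3 probes on chromosome 5. At chr5:35056203-35056262 the log2 signals of pLUM replicates 1, 2 and 3 were 1.95, 1.96 and 2.11, and those of pLB replicates 1, 2 and 3 were -7.32, -7.65 and -6.64, an order kept below. In intensity units these are 1828, 2183 and 2451 against 5.44, 3.45 and 4.50. At chr5:35065104-35065163 the log2 signal was 0.89, 0.93 and 1.12 on the pLUM arrays and -7.45, -7.81 and -6.81 on the pLB arrays. All pLUM arrays were thus high and all pLB arrays low on both probes. The probe printed above, whose transcript is NM_001204315, gave 1.69, 1.38 and 1.13 on the pLUM arrays and -5.97, -7.52 and -5.12 on the pLB arrays. The lines did not overlap here either, and the pLB arrays were spread more widely (SD 1.22 against 0.28, n = 3 each). All 3 probes were well above background on 3 of 3 pLUM arrays and on 0 of 3 pLB arrays, so that the decrease is known as a lower bound. This bound sets the pLUM mean against the mean over pLB arrays of the probe's own signal or, where higher, the lowest signal well above background on that array. PRLR was at least 157-fold, 77.4-fold and 104-fold lower in pLB on the 3 probes in the order given. The fitted differences were -9.21 (SE 0.27), -8.34 (SE 0.27) and -7.60 (SE 0.56), with limma adjusted p = 5.8e-07, 7.8e-07 and 2.7e-05. Without pLB replicate 2 the fitted difference of the third probe was -6.95. With a normexp background correction the bounds were 28.8-fold, 16.4-fold and 17.1-fold. This correction, named normexp below, adds an offset of 50 intensity units to every signal, which lowers the ratio between a bright and a dim signal.

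GHR, the growth hormone receptor, was read by 2 probes on chromosome 5 and was measured on every array. At chr5:42721449-42721508 the log2 signal was -0.07, 0.06 and 0.45 on the pLUM arrays and -1.74, -1.72 and -2.15 on the pLB arrays. On the probe printed above it was -0.76, -0.93 and -1.29 against -3.06, -2.97 and -2.45. The lines did not overlap on either probe, and no pLB array came near the pLUM range. GHR was 4.05-fold lower in pLB on the first probe (log2 -2.02, SE 0.21, limma adjusted p = 0.00015) and 3.57-fold lower on the second (log2 -1.83, SE 0.23, limma adjusted p = 0.00038). GHR RNA thus remained measurable in pLB, whereas none of the PRLR probes was well above background there.

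For the kinase and the transcription factors no difference of 2-fold passed the test. JAK2 gave a log2 signal of -2.13, -2.12 and -2.66 on the pLUM arrays and -2.69, -2.73 and -2.58 on the pLB arrays. pLUM replicate 3 lay within the pLB range, so that the lines overlapped. The JAK2 difference was -0.37 with a 95% interval from -0.83 to 0.10 (limma adjusted p = 0.15), an interval that holds no 2-fold change. STAT5B gave 0.70, 0.66 and 0.30 on the pLUM arrays and -0.04, -0.37 and -0.05 on the pLB arrays. These did not overlap, with all pLB arrays lower. The STAT5B difference was -0.71 (SE 0.19, 95% interval -1.15 to -0.26), or 1.63-fold, with limma adjusted p = 0.014, and it is called only where no fold threshold is set. STAT5A, at chr17:40463483-40463542, was well above background on none of the 6 arrays and was not tested. Its intensity was 3.71, 3.77 and 5.45 units on the pLUM arrays and 14.6, 13.4 and 4.99 units on the pLB arrays, where the lowest intensity well above background was 12.4 to 20.3 units over the 6 arrays.

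The feedback inhibitors did not move alike. SOCS2, which binds activated growth hormone receptor and targets it for degradation, was higher in pLB. Its log2 signal was -5.53, -5.34 and -5.49 on the pLUM arrays and -0.53, -0.62 and -0.56 on the pLB arrays, or 10.2, 13.8 and 12.6 intensity units against 603, 452 and 305. The pLB arrays lay within 0.1 of each other and far above every pLUM array. SOCS2 was well above background on 0 of 3 pLUM and 3 of 3 pLB arrays and was at least 27.4-fold higher in pLB (fitted log2 4.89, SE 0.15, limma adjusted p = 6.9e-07). With normexp the bound was 3.97-fold and the call held.

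CISH, the inhibitor whose promoter is printed above, gave -0.90, 0.18 and 0.13 on the pLUM arrays and -1.56, -2.79 and -0.45 on the pLB arrays. pLB replicate 3 was above pLUM replicate 1, so that the lines overlapped, and the spread was wide in both (SD 0.61 in pLUM and 1.17 in pLB, n = 3 each). The difference was -1.41 (SE 0.59, 95% interval -2.78 to -0.03) with limma adjusted p = 0.071 and was not called. It was -1.98 with adjusted p = 0.010 without pLB replicate 3 and -0.81 with adjusted p = 0.18 without pLB replicate 2. Under scaling to the median of each array it was -1.42 with adjusted p = 0.049, and over all alternatives the adjusted p ranged from 0.010 to 0.21. CISH and SOCS2 are both induced by STAT5, and 1 was not called while the other rose. A difference between these genes was not tested, since they are read by different probes.

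In the RANK ligand system, only the decoy receptor was measured on any array. TNFSF11, RANK ligand, had 2 probes, at chr13:43181387-43181446 and chr13:43181014-43181073, with intensities of 2.70 to 4.36 units over both. TNFRSF11A, its receptor RANK, gave 5.00 to 15.6 units at chr18:60053258-60053317. Neither gene was well above background on any of the 6 arrays, and neither was tested. Their RNA was not detectable at these signals, which does not show that it was absent.

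TNFRSF11B, osteoprotegerin, was read by 10 spots of 1 probe, averaged on each array after 3 outlier spots over all arrays were left out. Its log2 signal was -6.60, -6.53 and -6.26 on the pLUM arrays and -2.58, -2.45 and -2.67 on the pLB arrays. The intensities were 4.87, 6.10 and 7.37 units against 145, 127 and 70.5. All 3 pLB arrays were well above background and higher than every pLUM array, of which none was. TNFRSF11B was at least 7.01-fold higher in pLB (fitted log2 3.90, SE 0.17, limma adjusted p = 2.7e-06). With a normexp correction the difference was 0.73 with limma adjusted p = 0.13, and TNFRSF11B was not called. The offset of 50 units in that correction is larger than the TNFRSF11B intensities in pLUM, and the part of the offset was not tested. Under every other alternative that could test it, the adjusted p was 0.00028 or less.

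**Figure D3:**
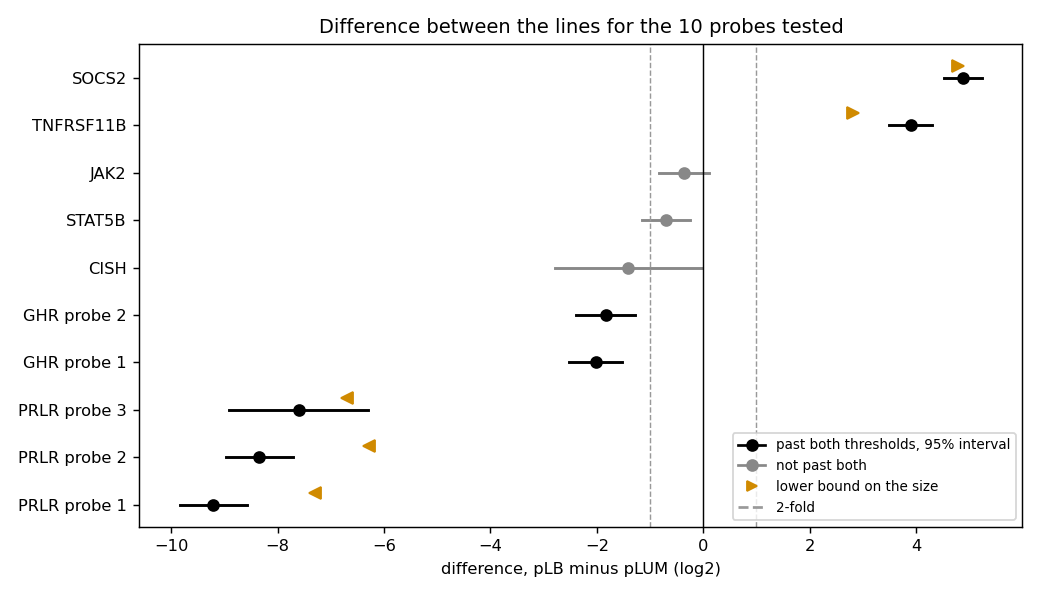
Fitted difference between the lines (log2, pLB minus pLUM) for the 10 probes that were tested, with 95% intervals from limma, n = 3 arrays a line. Triangles mark the lower bound where a line was not above background, black points passed the thresholds of 2-fold and of 0.05 for the adjusted p, and JAK2, STAT5B and CISH did not.

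Of the 14 probes, 10 passed the filter (3 or more arrays well above background) and were tested, which left STAT5A, both TNFSF11 probes and TNFRSF11A untested. 2 of the 10 tested probes were called higher in pLB and 5 lower, where 21.9% of all 23103 tested probes were called higher, 23.7% lower and 45.6% in either direction. The lines did not overlap for 8 of the 10, against 68.1% of all tested probes. By gene, with the probe of the highest mean standing for a gene, 2 of the 7 tested members were higher (SOCS2, TNFRSF11B), 2 were lower (PRLR, GHR) and 3 were not called, where 24.1% of 15020 named genes were called higher and 22.8% lower. A probe that is dim in 1 line passes the filter only through the other, as PRLR, SOCS2 and TNFRSF11B did, and these counts are therefore a description of the members and not support for a direction.

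Within slide 1, where pLB replicate 1 can be set against the 3 pLUM arrays, the differences were -9.33, -8.44 and -7.37 for the PRLR probes, -1.89 and -2.07 for GHR, 4.93 for SOCS2 and 3.88 for TNFRSF11B. The pLB arrays of slide 2 minus the pLUM arrays gave -9.15, -8.29 and -7.72 for PRLR, -2.08 and -1.72 for GHR, 4.87 for SOCS2 and 3.90 for TNFRSF11B. CISH was -1.36 within slide 1 and -1.43 across slides. Slide 1 holds only 1 pLB array, both sets of differences use the same pLUM arrays, and the slides were scanned separately. A fit with the slide as a block was run and gave the slide 1 differences, as only that slide holds both lines. An effect of the slide itself was not tested.

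A list of 30 genes around the prolactin receptor holds ligands, JAK and STAT relatives, SOCS proteins, phosphatases and adaptors. It includes family relatives and is not limited to genes shown to act with PRLR. Of these genes 27 were tested, and 6 (22.2%) were called higher in pLB and 8 (29.6%) lower. These shares are near the 24.1% and 22.8% of all named genes. The median difference was -0.10 against 0.07 over all named genes. With spike-in scaling the split of this list turned to 8 higher and 3 lower, and with normexp it was 4 and 4. PRL, prolactin itself, gave -7.31, -7.62 and -7.59 on the pLUM arrays, where it was not above background, and -3.72, -3.96 and -4.45 on the pLB arrays, where it was above on all 3. The pLB arrays were thus higher, and PRL was at least 2.52-fold higher in pLB (fitted log2 3.46, limma adjusted p = 1.6e-05). With normexp the PRL difference was 0.19 with adjusted p = 0.73 and the call was lost, whereas under every other alternative that could test it the adjusted p was 0.0012 or less. PRL passed the filter only through the pLB arrays. On pLB replicate 3 its signal of -4.45 lay near -4.75, the lowest signal well above background on that array. In the main fit, though not with normexp, the RNA of the ligand was called higher in the line in which no PRLR probe was above background.

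SOCS1, another JAK inhibitor, was 5.08-fold higher in pLB, with -4.10, -4.15 and -4.19 on the pLUM arrays and -2.04, -1.78 and -1.58 on the pLB arrays. NMI, which binds STAT proteins, was 3.57-fold higher and SIRPA, a receptor that recruits phosphatases, 3.01-fold higher. Among the lower genes, the adaptor GAB2 was 3.97-fold lower, the JAK2-binding adaptor SH2B1 2.98-fold, STAT2 2.92-fold and the kinase TYK2 2.46-fold lower. The adjusted p-values of these genes in limma were between 3.0e-05 (SOCS1) and 0.0065 (TYK2). SOCS1 was not called with normexp (log2 0.77), and TYK2 was called neither with normexp (log2 -0.998) nor with spike-in scaling (log2 -1.04). GH1, STAT4 and SOCS6 did not pass the filter.

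Of 16 genes that STAT5 is known to regulate, 11 were tested, of which 4 (36.4%) were called higher, 3 (27.3%) lower and 4 were not called, with a median of -0.05. Over all named genes the shares were 24.1% and 22.8% and the median 0.07. With the probes of a gene averaged, 5 genes of the list were called higher and 3 lower. The 5 that did not pass the filter were the milk genes CSN1S1, CSN2, CSN3, LALBA and BTN1A1. XDH, an enzyme of the milk fat globule and of purine breakdown, was 26.0-fold higher in pLB, with -4.24, -3.32 and -4.00 on the pLUM arrays and 0.67, 0.85 and 1.03 on the pLB arrays. PIM1, a survival kinase, was 20.9-fold higher, with -3.54, -3.38 and -3.04 against 0.90, 0.92 and 1.39. Neither gene overlapped between the lines. With normexp the differences were smaller, at log2 2.995 for XDH and 3.07 for PIM1, and both were still called. MYC was 5.79-fold higher, and CCND1 (cyclin D1) was 2.64-fold higher but was not called with normexp (log2 0.43). The limma adjusted p of the 6 genes named here beside ELF5 lay between 1.6e-06 (ID2) and 0.00070 (CCND1).

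ELF5, the transcription factor of alveolar progenitors, was lower in pLB. Its log2 signal was 0.10, 0.16 and 0.13 on the pLUM arrays and -7.49, -7.87 and -6.85 on the pLB arrays. It was above background on all pLUM arrays and no pLB array, as PRLR was, and was at least 42.8-fold lower in pLB (limma adjusted p = 1.1e-06). ID2, an inhibitor of differentiation factors, was 20.8-fold lower, with 0.62, 0.79 and 0.47 against -3.72, -3.89 and -3.65. The lines did not overlap for ELF5 or ID2, and with normexp the differences were -3.55 and -3.21 on the log2 scale. BCL6, a repressor of transcription, was 2.28-fold lower, a difference that spike-in scaling moved to -0.93 on the log2 scale, under the fold threshold. Among the 14 genes of this list with a RefSeq window, BCL6, CSN1S1, CSN2 and CSN3 held a match to TTCNNNGAA.

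All 21 genes of a list of RANK signalling partners were tested, and 8 (38.1%) were called higher in pLB and 3 (14.3%) lower. Over all named genes the shares were 24.1% and 22.8%, and the median of the list was 0.39 against 0.07. LGR4 and TNFSF10, both called higher, are in the list but do not lie downstream of RANK. Whether the list differs from the other genes was not tested. LGR4, which also binds RANK ligand, was 5.83-fold higher, with 0.18, 0.23 and 0.17 on the pLUM arrays and 2.88, 2.74 and 2.60 on the pLB arrays. RELB, a subunit of the noncanonical NF-kB dimer, was 5.04-fold higher, with 1.66, 1.50 and 1.59 against 3.93, 3.91 and 3.91. SRC, a kinase recruited by RANK, was 4.92-fold higher, and TRAF3, an adaptor that restrains noncanonical signalling, 4.62-fold higher. These 4 were called under every alternative, at log2 1.65 for SRC and 1.25 for TRAF3 with normexp. The lower genes were TAB3, a partner of the kinase TAK1 (2.64-fold), and the adaptors TRAF5 (2.58-fold) and TRAF1 (2.22-fold). TRAF1 was not called with normexp (log2 -0.82), with spike-in scaling (log2 -0.89) or without pLB replicate 2 (log2 -0.99). The genes named with a fold change had limma adjusted p = 0.0022 or less. Many genes of the list also serve other receptors of the tumor necrosis factor family, and RANK itself was not above background in either line.

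**Figure D4:**
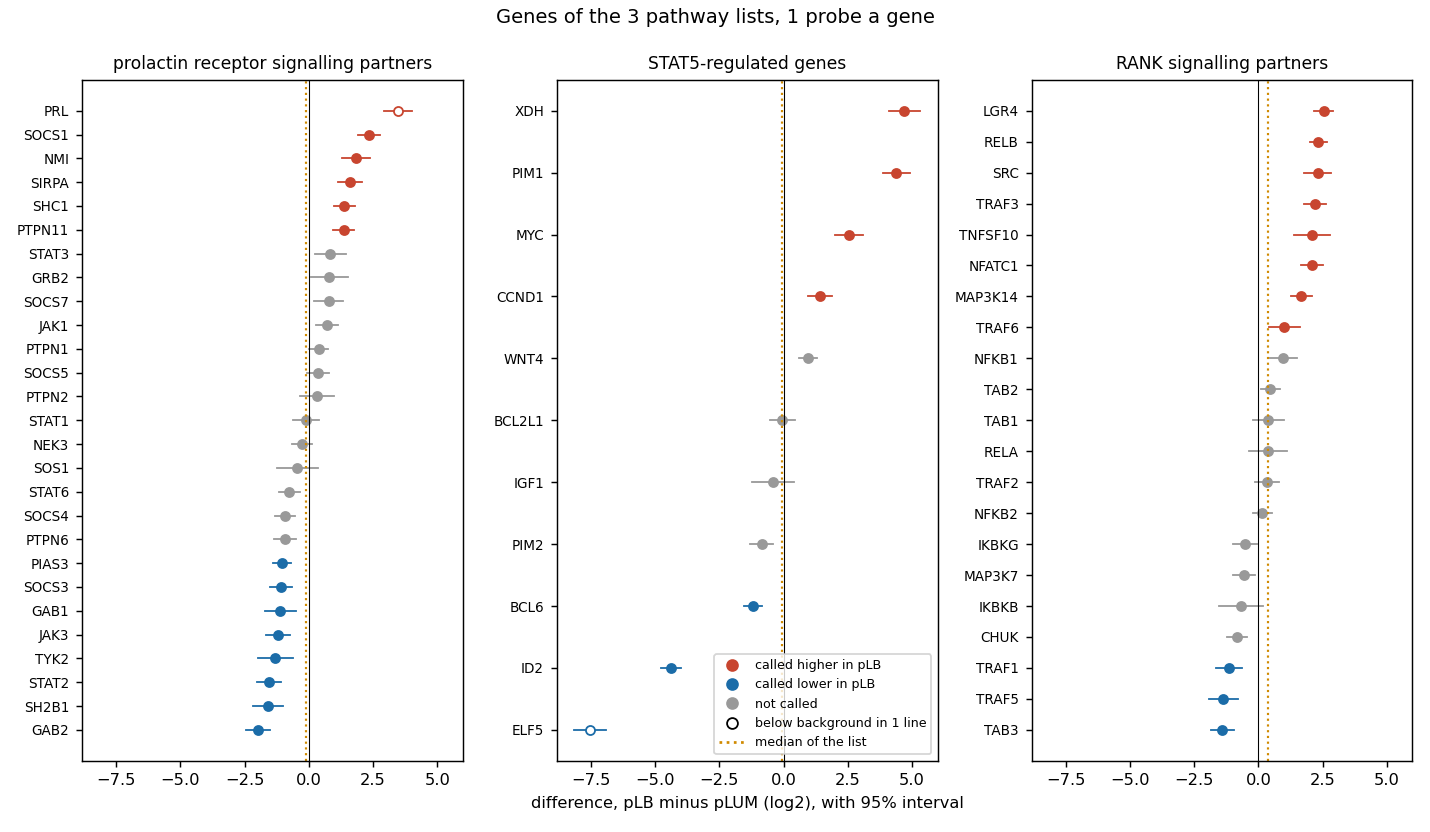
Fitted difference (log2, pLB minus pLUM) with its 95% interval for each tested gene of the 3 lists, 1 probe a gene, n = 3 arrays a line, red where called higher in pLB, blue where called lower and grey where not called. Open symbols are genes not above background in 1 line (PRL and ELF5), and dotted lines are the list medians of -0.10, -0.05 and 0.39.

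Markers of other cell types were measured on the same arrays. Of 6 fibroblast markers, COL3A1, DCN, LUM and PDGFRB were above background on no array, and COL1A2 was at least 11.5-fold higher in pLB. The summed level of these markers, in units of the 75th percentile, was 0.767 to 0.966 on the pLUM arrays and 0.786 to 1.14 on the pLB arrays. KDR and PECAM1 of 4 endothelial markers were above background on no array, with sums of 0.0728 to 0.108 in pLUM and 0.0937 to 0.207 in pLB. All 5 leukocyte markers on the array were above background on some array, with sums of 0.470 to 0.595 in pLUM and 0.428 to 0.552 in pLB. CD68 was 2.87-fold and VWF at least 1.80-fold higher in pLB, and no marker of these 3 lists was called lower by its probe with the highest mean. The part of such cells in the TNFRSF11B, SOCS2 and PRL differences was not tested.

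By Pearson's r over the 6 arrays, the genes most like SOCS2 were LINC00239, PANX1 and CDK6 (r at least 0.9998). Those most like PRLR were ARRB2, LRRC39 and MCRIP1 (r at least 0.9992). PRLR was taken from the printed probe alone, whose pLB signals were spread widely and not well above background. ARRB2 differed by only -0.77 (log2), under the fold threshold. As the arrays fall into the 2 lines, r mostly states that a gene separates them, and 1197 genes had r over 0.99 with SOCS2 and 462 with PRLR.

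**Figure D5:**
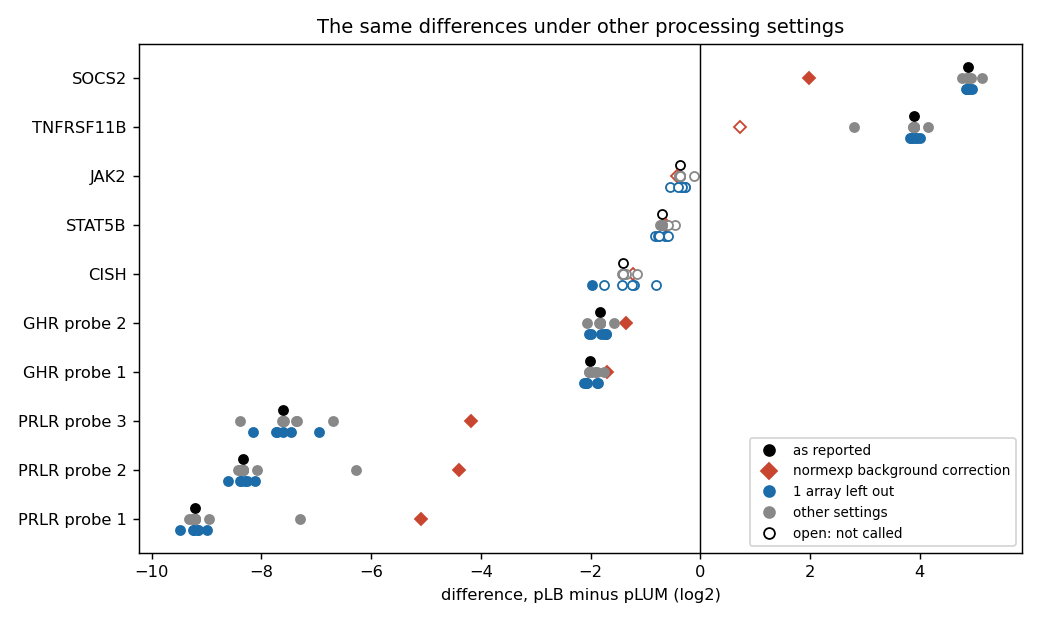
The differences of the 10 tested probes (log2, pLB minus pLUM) as reported and under the alternative settings, with open symbols where a difference was not called. No difference changes sign, normexp moves the 3 PRLR probes, SOCS2 and TNFRSF11B toward 0, and TNFRSF11B is then not called.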

How the data were processed

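RNA of 3 sorts of pLUM (1 nM E, 72 h) and 3 of pLB (EWD) was profiled on 1-colour Agilent arrays. The authors deposited an intensity per spot from Agilent Feature Extraction 10.10.1.1, background-corrected within the array and not normalized between arrays, with positions in hg19. The submitters' processing notes also name Partek, with no role given.

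From the deposited intensities, log2 values were computed and each array was set to its 75th percentile. Spots marked as outliers (296 to 387 an array) were dropped before a probe's spots were averaged. Probes that passed background on 3 or more of the 6 arrays entered a linear model in limma 3.58.1 (R 4.3.3, lmFit, then eBayes), with Benjamini-Hochberg adjustment over all 23103 probes, and called at 2-fold and an adjusted p under 0.05. The fit was tested on simulated data. Exact permutation of 3 against 3 arrays cannot give a two-sided p under 0.1. The number of arrays limits the precision.

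An official symbol was matched to 27978 of 34127 probes through RefSeq GRCh38.p14, which also supplied the promoters. All probes of the 10 genes are reported, and from each of 3 pathway lists the 4 largest called changes in each direction, PRL and LGR4. The members and lists were chosen with earlier results of these data known. Replicate numbers were not used as pairs. Alternatives were other background corrections, scalings, filters, blocks, tests and probe rules, and leaving out each array.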

Additional observations from a re-analysis of the deposited data

How the results depend on the processing

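No difference of a member or of a named pathway gene reversed under any alternative. Normexp was run on the mean and background signals with an offset of 50 units. It left 1 member probe and 1 member gene (SOCS2) called higher in pLB, as TNFRSF11B was lost. In the prolactin receptor list 4 genes were called lower, and 3004 probes of all were called higher against 5054. Where probes had to be above background on all 6 arrays, 0 member probes and 0 member genes were called higher and 2 probes and 1 gene (GHR) lower, since that filter removes PRLR, SOCS2 and TNFRSF11B. With quantile normalization, and with no fold threshold, 5 RANK partners were called lower against 3. Spike-in scaling left 3 genes of that list lower, moved the median gene by 0.25 (log2) toward pLB and made 58.4% of calls higher against 48.0%. That list is the one around the prolactin receptor. For the member counts, leaving out any single array gave 2 probes called higher each time and 5 called lower, or 6 with CISH without pLB replicate 3. Samples with the same replicate number did not deviate together (r -0.27, -0.10 and -0.22 across probes), and the fit with the replicate block called 2 member probes higher and 5 lower. Signals near background limit PRLR in pLB, SOCS2 and TNFRSF11B in pLUM to bounds, and leave STAT5A, TNFSF11 and TNFRSF11A without a comparison.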
